A study of Homo sapiens with 6 samples.

Results

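The mRNAs described here encode the subunits of Ragulator (LAMTOR1, LAMTOR2, LAMTOR3, LAMTOR4 and LAMTOR5) and 5 subunits of BORC (BORCS5, BORCS6, BORCS7, BORCS8 and BLOC1S1). They were taken by gene symbol and not by a threshold on their values, and all 10 were found among the 60676 genes counted. RNA was recovered from GST pulldowns out of lysate of HEK 293, an established human embryonic kidney cell line grown in suspension. In 3 libraries the bait was the FERRY complex fused to GST (GST-Ferry), and in 3 it was GST, the affinity tag, by itself. FERRY is a protein complex that binds mRNA and, through the GTPase RAB5, early endosomes. The comparison asks which RNAs came down with the complex beyond what the tag and resin hold back. No library of lysate RNA was analysed here, so stronger binding of an RNA and a larger amount of it in that lysate cannot be told apart. Control columns of the deposited table were read as GST and sample columns as GST-Ferry, by their names alone.

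Ragulator is a pentameric scaffold on the cytosolic face of late endosomes and lysosomes. LAMTOR1 anchors it in the membrane through lipid groups and wraps around pairs of roadblock-fold subunits, LAMTOR2 with LAMTOR3 and LAMTOR4 with LAMTOR5. It holds the Rag GTPases, which bring the growth-controlling kinase mTORC1 to the lysosome when amino acids are plentiful. BORC sits on the same membrane and recruits the GTPase ARL8, which couples lysosomes to kinesins and moves them toward the cell periphery. Ragulator binds BORC and restrains it when nutrients are scarce.

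The coding sequences of LAMTOR2, LAMTOR4 and LAMTOR3 are shown because these mRNAs lay at opposite ends of the Ragulator fold changes and differ in base composition. Each line gives the first 150 coding bases, 5′ to 3′, of the principal transcript in GENCODE 29 (GRCh38), and capitals mark a G or C at the last position of a codon.
LAMTOR2: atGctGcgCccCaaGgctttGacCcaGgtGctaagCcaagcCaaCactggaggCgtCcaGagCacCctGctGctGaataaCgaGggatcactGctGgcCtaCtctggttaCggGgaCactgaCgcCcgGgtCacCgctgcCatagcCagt
LAMTOR4: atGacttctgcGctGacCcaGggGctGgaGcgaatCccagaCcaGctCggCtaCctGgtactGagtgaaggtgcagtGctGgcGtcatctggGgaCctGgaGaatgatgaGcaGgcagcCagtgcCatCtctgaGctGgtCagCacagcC
LAMTOR3: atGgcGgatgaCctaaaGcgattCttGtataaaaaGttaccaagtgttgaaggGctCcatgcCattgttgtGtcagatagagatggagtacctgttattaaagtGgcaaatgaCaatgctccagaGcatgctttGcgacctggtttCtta
Of the 50 codons shown, 36 end in G or C in LAMTOR2, 33 in LAMTOR4 and 16 in LAMTOR3. Over the whole coding sequence the share of codons ending in G or C was 74.4% in LAMTOR2, 68.7% in LAMTOR4 and 34.7% in LAMTOR3. It was 85.7% in BORCS8, 78.7% in BORCS6, 73.2% in BLOC1S1 and 71.4% in LAMTOR1. BORCS5 had 69.4%, BORCS7 56.6% and LAMTOR5 55.5%. Log2 fold changes of these other members, in the same order, were 0.08, 0.81, 0.21, 0.50, 0.12, -0.31 and 0.22. The fold changes thus did not follow the order of the shares. A link between them was not tested.

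Library totals ran from 2454538 to 10466520 counts, and the GST-Ferry libraries were the shallower ones. A floor of 3 counts corresponded to 0.273 to 1.30 CPM, which covers counting error only, and the lowest count of any member was 18. Of 6 markers of HEK 293 all were detected, with VIM at 590 to 800 CPM in GST and 953 to 1349 CPM in GST-Ferry libraries, and LHX1 at 8.46 to 10.7 CPM over all libraries. Fold changes of all 6 lay above 0 with a median of 0.68 on the log2 scale, 3 had groups that did not overlap, and KRT18 was called higher (1.18, edgeR adjusted p = 0.0427). Of all tested genes 47.8% lay above 0, 14.9% were higher without overlap and 0.592% were called higher. The part of these marker differences in the results was not tested. Of 6 markers of other cell types (PTPRC, CD3E, HBB, ALB, MYH7 and PECAM1) each had 4 counts or fewer in every library, and CD3E and HBB had 0. Of the 5 bait subunits, transcripts of PPP1R21, C12orf4 and TBCK were called higher with GST-Ferry, GATD1 and CRYZL1 had log2 fold changes of 0.12 and -0.50 and were not called, and PPP1R21 had 39.4 to 44.6 CPM with GST and 798, 18290 and 37618 CPM in GST-Ferry 1, 2 and 3. A list of 5 long noncoding RNAs made up 1.21% to 1.40% of counts with GST and 0.781% to 1.06% with GST-Ferry, and its part in the results was not tested. The nuclear RNA MALAT1 held most of it, with mean levels of 10838 and 7112 CPM on GST and GST-Ferry and a log2 fold change of -0.61, while NEAT1 (-0.02) and KCNQ1OT1 (0.09) lay near 0 and NORAD, largely cytoplasmic, had -0.25. GST 3 stood apart from GST 1 and GST 2 in base composition. Relative to the GST mean, protein-coding genes with transcripts above 58% GC had a median log2 level of -0.45 in GST 3 against 0.22 in both GST 1 and GST 2. Genes at 42% GC or below lay at 0.36 in GST 3 and at -0.21 and -0.17 in GST 1 and GST 2. Fold changes of the members whose direction or call depends on GST 3 are given with and without it.

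Of the Ragulator mRNAs LAMTOR2, LAMTOR4 and LAMTOR1 had higher levels in each GST-Ferry library than in any GST library, and LAMTOR5 and LAMTOR3 overlapped between the baits. Over all tested genes 14.9% were higher without overlap, and 27.1% did not overlap in either direction. None of the Ragulator differences passed the test over all genes. Levels are counts scaled to library size by TMM (CPM, counts per 1000000), and each log2 fold change (GST-Ferry relative to GST) carries the standard error (SE) of the fit, and n is 3 libraries per bait throughout.

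LAMTOR2, the p14 roadblock subunit that pairs with LAMTOR3, had 19.4, 34.1 and 21.7 CPM in GST 1, 2 and 3 and 39.9, 51.3 and 52.2 CPM in GST-Ferry 1, 2 and 3. Its lowest GST-Ferry library lay above its highest GST library. The group means were 25.1 ± 7.89 CPM (SD, n = 3) and 47.8 ± 6.83 CPM (SD, n = 3), a log2 fold change of 0.92 ± 0.25 with a 95% interval from 0.38 to 1.46. The Benjamini-Hochberg adjusted p over 15546 tested genes was 0.0911 (edgeR, quasi-likelihood test).

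LAMTOR4, a small roadblock subunit that pairs with LAMTOR5, had 22.5, 29.1 and 24.5 CPM with GST. It had 41.1, 42.2 and 58.7 CPM with GST-Ferry, again without overlap. The GST libraries were close together and the spread with GST-Ferry came from replicate 3. The log2 fold change was 0.89 ± 0.22, with a 95% interval from 0.42 to 1.37 and a Benjamini-Hochberg adjusted p of 0.0755 in edgeR, the smallest of the 10 genes.

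LAMTOR1, the membrane anchor of the complex, had 26.8, 31.2 and 37.3 CPM with GST and 38.6, 39.8 and 56.5 CPM with GST-Ferry. The groups did not overlap, though GST 3 and GST-Ferry 1 were nearly level. Its log2 fold change was 0.50 ± 0.23 (edgeR, Benjamini-Hochberg adjusted p = 0.252), and 0.28 without GST-Ferry 3.

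LAMTOR5, the partner of LAMTOR4 and formerly known as HBXIP, was the most abundant member, with 50.3, 71.9 and 75.3 CPM with GST and 64.2, 91.1 and 75.2 CPM with GST-Ferry. The groups overlapped. The log2 fold change was 0.22 ± 0.22, with a 95% interval from -0.26 to 0.70 that holds both no change and a 1.62-fold higher level (edgeR, Benjamini-Hochberg adjusted p = 0.614).

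LAMTOR3, the MP1 scaffold protein that also binds kinases of the MAPK pathway, had 23, 33.3 and 63.2 CPM in GST 1, 2 and 3. With GST-Ferry it had 28.7, 39 and 33.1 CPM. GST 3 was by far the highest library, and the GST-Ferry values lay within the range of the other GST libraries except for GST-Ferry 2. The log2 fold change of -0.25 ± 0.32 (edgeR, Benjamini-Hochberg adjusted p = 0.701) turned to 0.21 without GST 3.

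**Figure D1:**
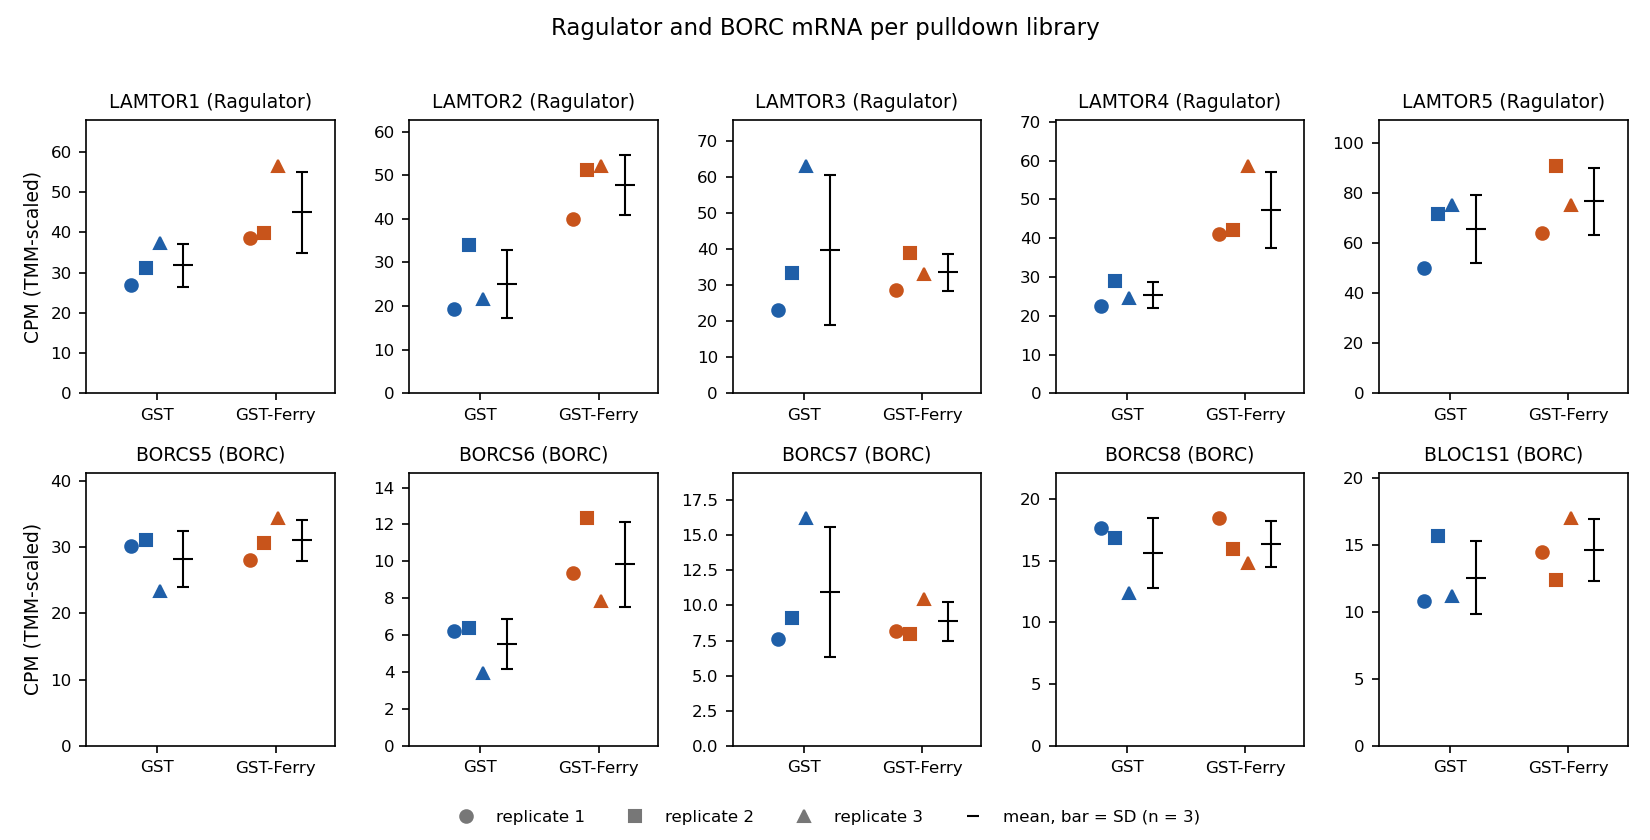
TMM-scaled CPM of each member in the 3 GST (blue) and 3 GST-Ferry (orange) libraries, with marker shapes for replicate numbers and the mean ± SD beside each group; every axis starts at 0. LAMTOR1, LAMTOR2, LAMTOR4 and BORCS6 have all GST-Ferry points above all GST points, as do 14.9% of all tested genes. The GST 3 triangle is the highest point for LAMTOR3 and BORCS7.

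LAMTOR2 and LAMTOR3, whose proteins pair, were also compared as a ratio. The ratio of LAMTOR2 to LAMTOR3 CPM was 0.844, 1.02 and 0.343 in GST 1, 2 and 3 and 1.39, 1.32 and 1.58 in GST-Ferry 1, 2 and 3. The ratios did not overlap between the baits. They were less even with GST, where the spread came from the low value of GST 3. The other pair, LAMTOR4 with LAMTOR5, was not compared in this way. No share of gene pairs with ratios that do not overlap is given. On the log2 scale the ratio was -0.59 ± 0.84 (SD, n = 3) with GST and 0.51 ± 0.13 (SD, n = 3) with GST-Ferry (exact permutation test, two-sided, p = 0.1, the smallest p that 3 against 3 libraries can give). This ratio was chosen after the values were seen. In the fit, the log2 fold change of LAMTOR2 exceeded that of LAMTOR3 by 1.17 over all libraries. The difference was 0.59 without GST 3 and 0.55 with offsets for GC content and length.

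Among the 5 BORC mRNAs, BORCS6 was the only one whose groups did not overlap, and none passed the test. This is near the share over all tested genes, of which 14.9% were higher without overlap and 27.1% did not overlap in either direction. BORCS6, also called lyspersin, a BORC subunit that binds Ragulator as well, had 6.22, 6.38 and 3.98 CPM with GST and 9.36, 12.3 and 7.83 CPM with GST-Ferry. These levels rest on 18 to 70 counts per library, and 18 was the lowest count of any member. Its log2 fold change was 0.81 ± 0.32, with a 95% interval from 0.13 to 1.50 (edgeR, Benjamini-Hochberg adjusted p = 0.194), and 0.61 without GST 3.

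BORCS5, or myrlysin, the lipid-anchored subunit needed for ARL8 recruitment, had 30.2, 31.2 and 23.4 CPM with GST and 28.1, 30.6 and 34.4 CPM with GST-Ferry. The values interleaved, and the log2 fold change of 0.12 ± 0.21 had a 95% interval from -0.34 to 0.58 and was -0.03 without GST 3. It was the most abundant BORC mRNA of the 5 in CPM.

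BORCS7, also called diaskedin, had 7.58, 9.11 and 16.2 CPM with GST and 8.19, 7.96 and 10.4 CPM with GST-Ferry. As for LAMTOR3, the highest library was GST 3, and the log2 fold change of -0.31 ± 0.33 became 0.04 without it. BORCS8 had 17.7, 16.9 and 12.4 CPM with GST and 18.4, 15.9 and 14.8 CPM with GST-Ferry, which overlapped. Its log2 fold change was 0.08 ± 0.24, but -0.08 without GST 3 and -0.19 with offsets for GC content and length.

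BLOC1S1 is shared by BORC and by BLOC-1, a complex for the biogenesis of lysosome-related organelles, and its mRNA is a known cleavage target of the stress sensor IRE1. It had 10.8, 15.7 and 11.2 CPM with GST and 14.5, 12.3 and 17 CPM with GST-Ferry. The groups overlapped, with a log2 fold change of 0.21 ± 0.26 and a 95% interval from -0.35 to 0.77, and -0.14 with those offsets. For BORCS5, BORCS7, BORCS8 and BLOC1S1, Benjamini-Hochberg adjusted p-values from edgeR ran from 0.642 to 0.889.

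Of the members 0 of 10 were called higher and 0 lower by edgeR's quasi-likelihood test at an adjusted p under 0.05, where 0.592% of all tested genes were called higher and 0.0322% lower (0.624% in either direction). At an unadjusted p under 0.05 the same test had 4 members higher (LAMTOR1, LAMTOR2, LAMTOR4 and BORCS6) and 0 lower, against 11.3% and 8.05% of all genes. These 4 were also the members without overlap between the groups, which held for 14.9% of all genes in that direction and for 27.1% in either. By other tools DESeq2 called 2 members higher, LAMTOR2 (adjusted p = 0.028) and LAMTOR4 (adjusted p = 0.018), and limma-voom called 0. Over all tested genes DESeq2 called 534 higher and 177 lower, and limma-voom 14 and 0. Fold changes lay above 0 for 8 of 10 members and for 47.8% of all genes. The median log2 fold change was 0.50 over the Ragulator genes, 0.12 over the BORC genes (0.04 without GST 3) and -0.03 over all tested genes.

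Without GST 3, LAMTOR2 (log2 fold change 0.79, adjusted p = 0.0404) and LAMTOR4 (0.83, adjusted p = 0.0213) were called higher in edgeR after Benjamini-Hochberg adjustment. That fit called 701 genes higher and 558 lower over all tested genes. Without GST-Ferry 2 or GST-Ferry 3, LAMTOR2 kept a log2 fold change of 0.83 in both fits, with adjusted p-values of 0.425 and 0.47 in the same edgeR test. Over all tested genes those fits called only 0 and 3 genes higher, and 0 lower. LAMTOR1, LAMTOR2, LAMTOR4, LAMTOR5 and BORCS6 kept a fold change above 0 under each of 17 alternative settings (16 for BORCS6, which had no adjusted p in DESeq2), a sign that leaving out libraries could not change for the 4 without overlap.

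**Figure D2:**
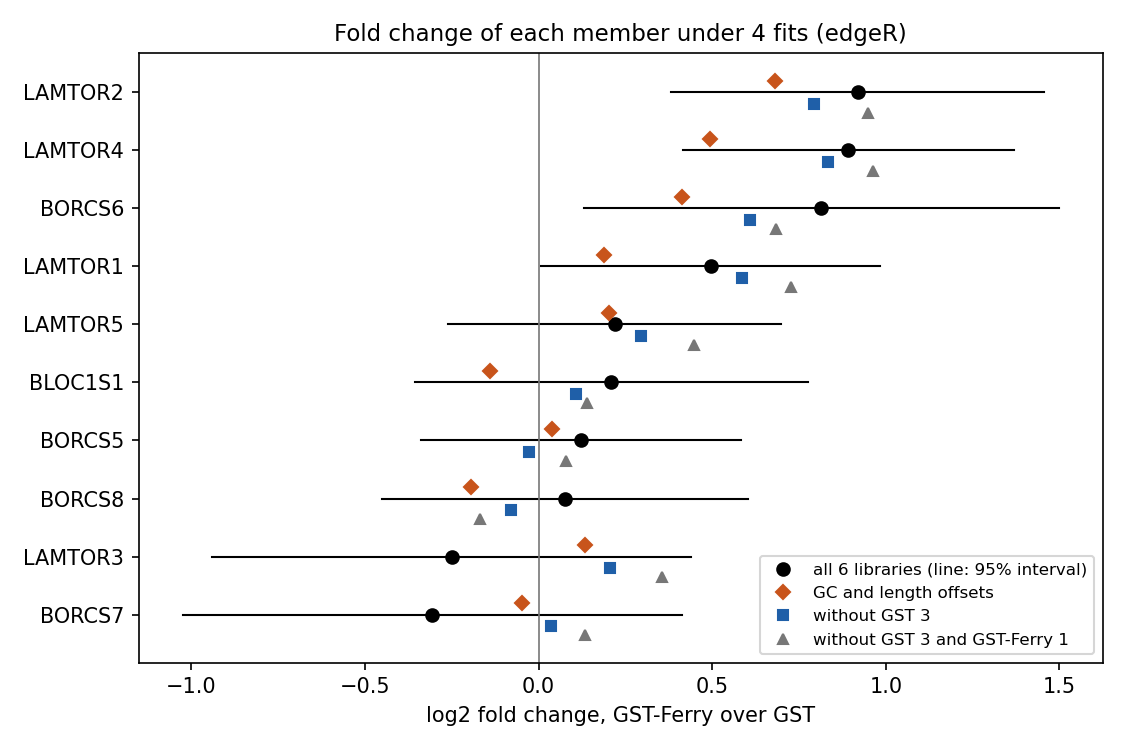
Log2 fold change of GST-Ferry over GST for each member (rows), from edgeR on all 6 libraries (black, line: 95% interval), with offsets for GC content and exonic length (orange), without GST 3 (blue) and without GST 3 and GST-Ferry 1 (grey). LAMTOR2 and LAMTOR4 stay to the right of 0 in the 4 fits, at 0.68 and 0.49 with the offsets, while LAMTOR3 moves from -0.25 to values above 0 in the other 3.

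The 10 genes ranged from 37.7% GC over the annotated transcripts of LAMTOR3 to 61.5% for BORCS6. With all libraries the 2 members under 42% GC, LAMTOR3 and BORCS7, were the 2 with a fold change below 0. That match rested on GST 3. Without it LAMTOR3 and BORCS7 lay at 0.21 and 0.04. The members below 0 were then BORCS5 (-0.03, 50.5% GC) and BORCS8 (-0.08, 59.1% GC). A gradient of fold change with GC content ran through the transcriptome. The median log2 fold change was -0.33 over 2617 tested protein-coding genes at 42% GC or below and 0.38 over 2786 genes above 58% GC. Without GST 3 the same medians were -0.11 and 0.18, so the gradient was flatter. Set against the median of its own GC class, LAMTOR2 lay higher by 0.65 on the log2 scale, LAMTOR4 by 0.51, BORCS6 by 0.43, LAMTOR1 and LAMTOR5 by 0.23 each, LAMTOR3 by 0.08 and BORCS7 by 0.03. BORCS5, BLOC1S1 and BORCS8 differed from their class by -0.02, -0.17 and -0.30. LAMTOR2 exceeded 96.1% of the 1650 genes of its class and LAMTOR4 exceeded 90.3% of the 2786 genes of its class. Without GST 3 the differences from the class median were 0.65 for LAMTOR2 and LAMTOR4, 0.45 for LAMTOR1, 0.43 for BORCS6, 0.31 for LAMTOR3, 0.27 for LAMTOR5 and 0.14 for BORCS7. BLOC1S1, BORCS5 and BORCS8 then differed from theirs by -0.07, -0.10 and -0.26.

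With offsets for GC content and exonic length in the edgeR fit, the log2 fold change was 0.68 for LAMTOR2 (adjusted p = 0.0994), 0.49 for LAMTOR4 (adjusted p = 0.188), 0.41 for BORCS6 (adjusted p = 0.46) and 0.19 for LAMTOR1 (adjusted p = 0.703). The median was then 0.20 over Ragulator and -0.048 over BORC. LAMTOR3 lay at 0.13 and BORCS7 at -0.05. The values of LAMTOR1, LAMTOR2, LAMTOR4 and BORCS6 were smaller than without offsets, and those of LAMTOR3 and BORCS7 were closer to 0. The direction turned for LAMTOR3, BORCS8 (-0.19) and BLOC1S1 (-0.14).

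**Figure D3:**
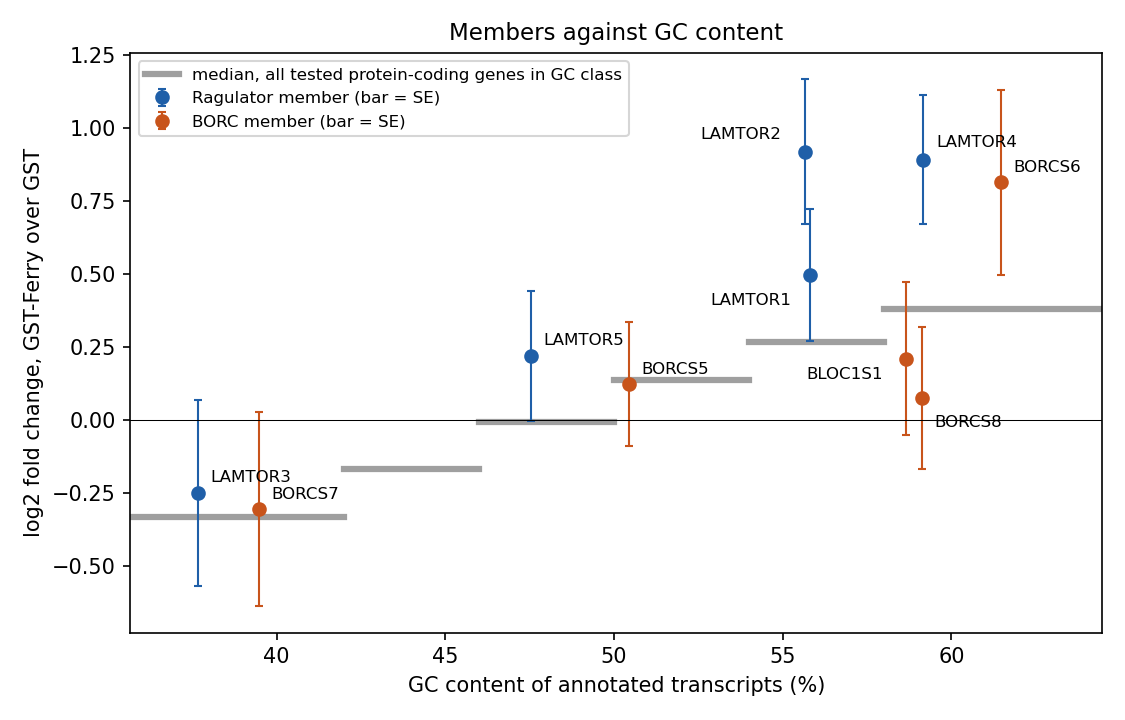
Log2 fold change of each member (vertical axis, bar: SE) against the GC content of its annotated transcripts in percent (horizontal axis), with Ragulator in blue and BORC in orange. Grey lines give the median of all tested protein-coding genes in 6 GC classes, over all 6 libraries, which climbs from -0.33 to 0.38 (from -0.11 to 0.18 without GST 3); LAMTOR2 and LAMTOR4 lie 0.65 and 0.51 above their class.

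Genes that overlap the members bear on the counts, since the strand setting of the counting was not given in the sources used here. LAMTOR5-AS1, a noncoding gene that overlaps LAMTOR5 on the opposite strand, was lower in the GST-Ferry libraries. It had 50.4, 58.2 and 52.4 CPM with GST and 42, 29.4 and 27.8 CPM with GST-Ferry. Its groups did not overlap, and its log2 fold change was -0.68 ± 0.22 (edgeR, Benjamini-Hochberg adjusted p = 0.131). Groups lay lower without overlap in 12.2% of all genes. TRAPPC14, on the opposite strand to LAMTOR4, had 18.7 ± 7.11 and 18.8 ± 0.478 CPM (SD, n = 3), a log2 fold change of -0.00 ± 0.29. RFXANK, which overlaps BORCS8 on the opposite strand, had a log2 fold change of 0.57 ± 0.25, and ITGA7, which overlaps BLOC1S1, of -0.24 ± 0.35. LRRC51, opposite LAMTOR1, held 33 counts or fewer in each library. The readthrough genes BORCS8-MEF2B, BORCS7-ASMT and BLOC1S1-RDH5 held 8 counts or fewer in each library, and the pseudogenes LAMTOR3P1, LAMTOR3P2, LAMTOR5P1 and BORCS8P1 3 or fewer. LRTOMT, AC007619.2 and AC129492.7, which overlap LAMTOR1, BORCS5 and BORCS6 on the opposite strand, had 0 counts, and AL358790.1, opposite BORCS7, had 8 or fewer. Reads shared between them and the members could have been lost or split in counting.

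Levels of different genes were compared per length, as CPM per kilobase of the principal transcript. With GST the order was LAMTOR5 (75.8 ± 15.6), LAMTOR4 (41.9 ± 5.6), LAMTOR2 (38.3 ± 12), LAMTOR1 (26.9 ± 4.45), BLOC1S1 (22 ± 4.74), BORCS8 (10.9 ± 2), LAMTOR3 (9.43 ± 4.94), BORCS5 (5.84 ± 0.873), BORCS7 (4.53 ± 1.9) and BORCS6 (2.15 ± 0.521), as mean ± SD of 3 libraries. Between neighbours in this order, the ranges of mean ± SD were separate for LAMTOR5 and LAMTOR4 and for BLOC1S1 and BORCS8, and overlapped for the other 7 pairs. With GST-Ferry LAMTOR5 stood at 88.5 ± 15.6, LAMTOR4 at 78.2 ± 16.3 and LAMTOR2 at 73 ± 10.4 CPM per kilobase, and the ranges of these 3 overlapped. LAMTOR1 followed at 38.2 ± 8.5, BLOC1S1 at 25.6 ± 4.06, BORCS8 at 11.5 ± 1.31 and LAMTOR3 at 7.94 ± 1.22 CPM per kilobase. BORCS5 had 6.41 ± 0.651, BORCS6 3.82 ± 0.889 and BORCS7 3.66 ± 0.565 CPM per kilobase. The order rests on the transcript chosen. LAMTOR3, BORCS5 and BORCS7 have annotated 3′ UTRs of 3658, 3918 and 2037 bases, against 139 for LAMTOR2 and 239 for LAMTOR4, and over the length of all annotated exons BORCS8 came to the bottom of the order with BORCS6, both at 2.98 CPM per kilobase over the 6 libraries.

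Coding lengths of the members, without the stop codon, ran from 297 bases (LAMTOR4) to 1071 bases (BORCS6). The principal transcripts of LAMTOR2 and LAMTOR4 were 655 and 605 bases long, with 4 exons each. BORCS6 has a single exon. On GRCh38 as placed by GENCODE 29, LAMTOR2 lies on chromosome 1 (156054752 to 156058510, plus strand), LAMTOR4 on chromosome 7 (100148907 to 100155944, plus strand), LAMTOR3 on chromosome 4 (99878336 to 99894490, minus strand), LAMTOR1 on chromosome 11 (72085895 to 72103387, minus strand) and BORCS6 on chromosome 17 (8188333 to 8190907, minus strand). Values are of whole genes, and isoforms were not told apart.

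Among other genes of lysosome positioning and nutrient sensing, 1 of 67 tested genes of 8 lists passed the test, against 0.624% of all genes. It was ATP6V0D1, a subunit of the membrane sector of the V-ATPase, the proton pump with which Ragulator associates. ATP6V0D1 had 23, 23.3 and 18.6 CPM with GST and 40.1, 72 and 57 CPM with GST-Ferry. Each GST-Ferry library lay above the GST libraries. Its log2 fold change was 1.36 ± 0.24 (edgeR, Benjamini-Hochberg adjusted p = 0.042). It stayed called with offsets for GC content and length (1.16, adjusted p = 0.0407) and lost the call without GST 2 (1.40, adjusted p = 0.0956), GST-Ferry 2 (1.11, adjusted p = 0.425) or GST-Ferry 3 (1.33, adjusted p = 0.41) in the same edgeR test. The fits without these libraries called only 3, 0 and 3 genes higher over all tested genes, and 0 lower.

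Of the 9 tested lysosomal membrane genes and V-ATPase partners, fold changes of 7 lay above 0 and the median was 0.21 on the log2 scale. The lysosomal membrane protein LAMP2 was the lowest at -0.51 ± 0.31, and the V-ATPase subunit ATP6V1A the most abundant, with a log2 fold change of 0.45 ± 0.27. LAMP2 had 82.8, 73.9 and 184 CPM in GST 1, 2 and 3 and 97.6, 69.2 and 70.0 CPM with GST-Ferry. Its value below 0 thus rests on GST 3, by far its highest library. ATP6V0C was not tested, with 3 counts or fewer in each library. In this list 1 gene was called higher and 0 were called lower.

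Genes around the Rag GTPases, which Ragulator holds on the lysosome, lay on both sides of 0. RRAGA, a Rag GTPase, had a log2 fold change of 0.91 ± 0.23 (mean 19.3 CPM with GST, 36.6 with GST-Ferry, edgeR, Benjamini-Hochberg adjusted p = 0.0827), and its groups did not overlap. It had 21.4, 21.6 and 14.9 CPM in GST 1, 2 and 3, so GST 3 was its lowest library. The amino acid sensor SLC38A9 was lowest, at -0.77 ± 0.27, also without overlap. It had 29.5, 35.9 and 59.1 CPM in GST 1, 2 and 3 and 25.5, 21.9 and 25.2 CPM with GST-Ferry, so GST 3 was its highest library. Groups did not overlap in 27.1% of all genes, in either direction. FNIP1, a partner of folliculin and the most abundant of the list, lay at -0.38 ± 0.23. Of 8 tested genes in the list of Rag GTPases, folliculin and its partners, 3 had a fold change above 0 and 0 were called, and the median was -0.09.

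Among the other BORC subunits, KXD1 had a log2 fold change of 0.34 ± 0.23 and the highest level, and BLOC1S2 had -0.16 ± 0.24, with 2 of 3 above 0. In BLOC-1 outside BORC, 2 of 5 genes lay above 0, from -0.79 ± 0.31 for BLOC1S4 to 0.71 ± 0.23 for BLOC1S3, with a median of -0.18 and BLOC1S6, the most abundant, at -0.53 ± 0.34. BLOC1S6 had 40.9, 40.5 and 101 CPM in GST 1, 2 and 3 and 41.4, 54.5 and 30.4 CPM with GST-Ferry. GST 3 was by far its highest library. For KXD1 and BLOC1S3, GST 3 was the lowest GST library, at 55.1 and 10.9 CPM. Neither list had a called gene, so the remaining BORC subunits gave no call either.

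Downstream of BORC, 9 of 12 genes of ARL8, its effectors and kinesins lay above 0, with a median log2 fold change of 0.11 and 0 called. RUFY3, an effector that links ARL8 to dynein, had the smallest value, -0.19 ± 0.19. KIF5B, the kinesin heavy chain and the most abundant of the list, had 0.03 ± 0.21. On the dynein side, RAB7A, the late endosomal GTPase, had 0.82 ± 0.20 with groups that did not overlap (edgeR, Benjamini-Hochberg adjusted p = 0.0765). Over all genes 14.9% were higher without overlap. The calcium channel MCOLN1 had -0.39 ± 0.32 and SPAG9, the most abundant, -0.19 ± 0.19, with 4 of 8 genes above 0, a median of 0.01 and 0 called.

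Amino acid sensing and mTORC1 genes gave 0 calls. In GATOR1, GATOR2 and KICSTOR, 11 of 14 tested genes lay above 0 with a median of 0.30, from -0.33 ± 0.25 for KICS2 to 0.94 ± 0.30 for KPTN, both KICSTOR subunits. CASTOR1, an arginine sensor, was not tested, with 4 counts or fewer in each library. In mTORC1, RHEB and TSC, 7 of 9 lay above 0 with a median of 0.23. The mTOR-binding subunit MLST8 had 0.76 ± 0.22, the inhibitor DEPTOR -0.20 ± 0.35 and the kinase MTOR, the most abundant, 0.19 ± 0.19. All values given so far for these lists are log2 fold changes, with SE for single genes. KPTN had 17.3, 18.6 and 9.87 CPM in GST 1, 2 and 3, and MLST8 had 54.7, 59.3 and 37.6 CPM. GST 3 was thus the lowest GST library of both, and it was the highest of KICS2, at 24.6 CPM. Of 67 tested genes of the 8 lists, edgeR's unadjusted p was under 0.05 for 11 on the higher side and 2 on the lower, where it was for 11.3% and 8.05% of all genes. Groups did not overlap for 12 of the 67 on the higher side and 2 on the lower, against 14.9% and 12.2% of all genes.

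**Figure D4:**
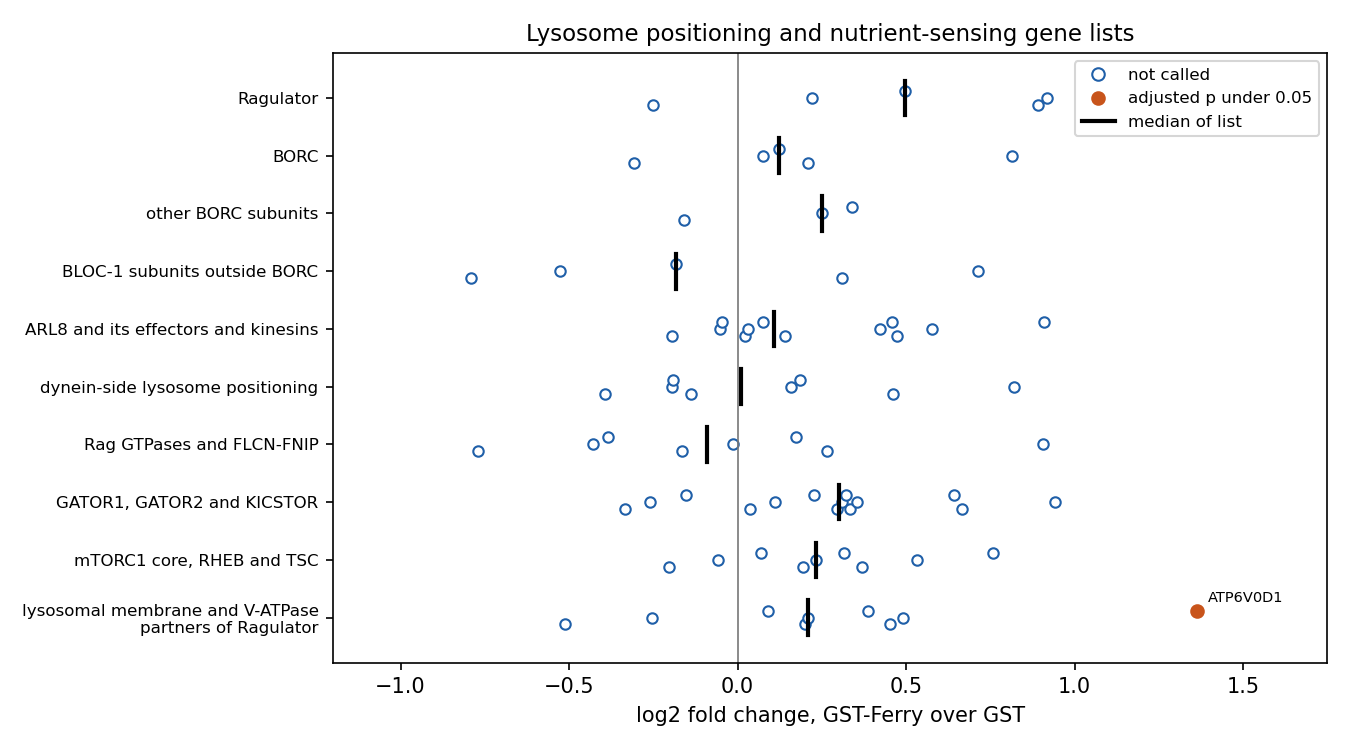
Log2 fold change of GST-Ferry over GST (horizontal axis) for each tested gene of Ragulator, BORC and 8 related lists (rows), with the list median as a black bar and the gene that passed the test named. ATP6V0D1 at 1.36 is the only filled point, a gene with an adjusted p under 0.05. The Ragulator median of 0.50 is the highest of the 10 rows, and was 0.20 with offsets for GC content and length. Medians with offsets are not given for the 8 related lists. The HEK 293 markers, not drawn, had a median of 0.68.

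The genes whose profile over the 6 libraries was most like the mean Ragulator profile were ARPC4, MRPL11 and S100A13. Their root mean square difference from it was 0.069, 0.073 and 0.077 on the centred log2 CPM scale. For the mean BORC profile they were PHAX, KCTD15 and VANGL2, at 0.032, 0.041 and 0.042. They were taken from 10473 protein-coding genes with at least 10 CPM on average. Their log2 fold changes were 0.39 to 0.52 and 0.15 to 0.22, and none was called.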

How the data were processed

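The deposited table holds raw read counts per Ensembl gene ID for 6 libraries, 1 column each, per the file headers. Per the labels' protocols, baits on glutathione resin were incubated with lysate for 1.5 h, and directional libraries were made after removal of rRNA. STAR 2.5.2b, bcl2fastq 2.19.1 and the build GRCh38.p13 are named, per the submitters' processing notes. The counting program, its strand setting and its annotation are not given in the sources used here.

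Symbols came from a table of gene names, and gene models from GENCODE 29. Low genes were removed by filterByExpr at its settings of 10 for the count and 15 for the total, leaving 15546 genes with 99.5% to 99.7% of counts, scaled by TMM and tested by quasi-likelihood in edgeR 4.0.16 under R 4.3.3 (two-sided, no covariates), with Benjamini-Hochberg adjustment at 0.05. All 10 members passed the filter. The procedure was tested on simulated counts. Alternatives used limma 3.58.1, DESeq2 1.42.0, other scalings, offsets (loess, span 0.3), thinning to 2454538 total counts (1 draw) and left-out libraries. Figures used matplotlib 3.10.9.

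Members were matched by symbol alone, but the choice of these complexes and lists was made with earlier results of these data known. All members are named; of each list the text names every called gene, the largest and smallest fold change and the most abundant gene, and for each complex the 3 protein-coding genes nearest in profile (prior count 2). For 2 lists a gene that this rule picks is not reported here. No label says whether replicates are separate cultures. The p-values then reflect only how these libraries vary, which may be technical. No library was a duplicate: between libraries of a bait, chi-square divided by its degrees of freedom was 4.85 to 60.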

Additional observations from a re-analysis of the deposited data

How the results depend on the processing

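Under the 17 refits, no member was called lower, and LAMTOR3, LAMTOR5 and the 5 BORC genes were not called where they had an adjusted p (BORCS6 had none in DESeq2). The count of members called higher, 0 by edgeR on all libraries, was 2 with no filter on low counts, 2 with DESeq2, 1 at equal total counts (1 draw, LAMTOR4 at an adjusted p of 0.0486), 3 without GST 3 and GST-Ferry 1 together, and 0 to 2 with each library left out. The count of related list genes called higher, 1 with all libraries, was 0 with RLE size factors, with library sizes alone, with limma-voom and at a threshold of 0.01. It was 5 without a filter, 6 with DESeq2, 15 without GST 3 and GST-Ferry 1, and 0 to 5 with each library left out. Over all tested genes, 92 were called higher with all libraries, 421 without a filter, 534 with DESeq2 and 117 at equal total counts. That count was 11 with RLE size factors, 7 with library sizes alone and 14 with limma-voom. Without GST 3 and GST-Ferry 1 it was 1754, and 0 to 701 with each library left out. Related genes called lower, 0 at first, were 1 without a filter, 2 without GST 3 and GST-Ferry 1, and 0 to 1 with each library left out. Of all tested genes 5, 323, 992 and 0 to 558 were called lower in these fits. The cause was not tested.

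The median BORC log2 fold change of 0.12 became -0.048 with offsets for GC content and length. The Ragulator median was 0.50, and 0.28 to 0.61 with each library left out. LAMTOR1 was called without GST 3 and GST-Ferry 1 (log2 fold change 0.73, adjusted p = 0.0164 by edgeR). ATP6V0D1 lost its call with RLE size factors (log2 fold change 1.35, adjusted p = 0.0518), library sizes alone (1.27, 0.0693) and limma-voom (1.30, 0.0577).

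Directions turned in members that were not called. With offsets for GC content and length the log2 fold change was 0.13 for LAMTOR3, -0.19 for BORCS8 and -0.14 for BLOC1S1. With the replicate block and those offsets it was 0.19, -0.20 and -0.11. Without GST 3 and GST-Ferry 1 it was 0.35 for LAMTOR3, 0.13 for BORCS7 and -0.17 for BORCS8. With each library left out it ran from -0.55 to 0.21 for LAMTOR3, from -0.027 to 0.20 for BORCS5, from -0.53 to 0.037 for BORCS7 and from -0.079 to 0.16 for BORCS8. The upper values of LAMTOR3 and BORCS7 and the lower ones of BORCS5 and BORCS8 came without GST 3.

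Same-numbered GST and GST-Ferry libraries deviated together with r of 0.246, 0.0793 and -0.133 across genes, and only replicate 1 correlated best with its own number. Deviations from a mean of 3 libraries cannot settle whether the numbers mark pairs. With the replicate block 0 members and 1 related gene were called higher, the medians were 0.49 (Ragulator) and 0.13 (BORC), and 167 genes were higher and 28 lower over the transcriptome. With the replicate block and GC and length offsets together, 1 member, LAMTOR2 (adjusted p = 0.0134 by edgeR), and 7 related genes were called higher, 2 related genes were called lower, and the BORC median was -0.0066. Over all tested genes that fit called 686 higher and 373 lower.

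Over all tested genes, edgeR called 92 higher and 5 lower, and the alternatives ranged from 0 without GST-Ferry 2 to 1754 higher and 992 lower without GST 3 and GST-Ferry 1. Without GST-Ferry 2 no member or related gene was called by edgeR. The shallow GST-Ferry 2 and 3 limit BORCS6 and BORCS7, which had 18 to 31 counts there.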
